A study of Mus musculus with 15 samples.

Results

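The mitochondrial genome is copied and transcribed by proteins that are encoded in the nucleus. Followed here were 10 nuclear genes for its maintenance, its expression or the control of these. The tissue was the tibialis anterior, a fast muscle of the lower hind limb. The genes were Tfam, Polg, Polg2, Polrmt, Tfb1m, Tfb2m, Ssbp1, Tefm, Mgme1 and Ppargc1a. They were found by symbol through their Ensembl identifiers, and all 10 were among the 30672 genes of the count table and among the 15533 genes with enough reads to be tested. All mice were male, of the 129Pas strain and 7 weeks old. They formed 4 groups of 4 WT, 4 WT + TAM, 4 Mtm1-/y and 3 Mtm1-/y + TAM mice, where TAM is tamoxifen, a modulator of the estrogen receptor, and Mtm1-/y mice are a model of X-linked myotubular myopathy that lacks the phosphoinositide phosphatase myotubularin. The question was whether the genotype and the treatment change the transcripts of the machinery that maintains and reads mtDNA. The sources used here do not give the dose, start or duration of tamoxifen. The model lacks the gene in every cell and not in muscle alone.

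The libraries held 18042558 to 45823277 counts each. Levels are given as CPM, the counts of a gene relative to the size of its library after scaling with TMM factors, and log2 fold changes are given ± their standard error (SE). Mtm1 itself was at 13.5 to 17.7 CPM in the 8 WT and WT + TAM libraries and at 2.91 to 3.71 CPM in the 7 mutant libraries. So every library matched the genotype of its label, while the label of treatment was not checked. Markers of fast fibres summed to 139252 CPM or more in every library. In a principal component analysis Mtm1-/y replicate 1 and WT + TAM replicate 1 stood apart from the rest of their groups, and slow-fibre markers summed to 1608 CPM in the latter against 181 CPM in the lowest WT + TAM library. For the members and for Twnk, Nrf1, Gabpa, Esrra and Ppargc1b, values that changed by over 1.5 times, in sign or in call without this pair of libraries are given beside the results or with the alternative settings at the end. Endothelial markers were lower in the mutants, with 7 of 8 called in Mtm1-/y against WT and a summed level of 342 to 399 CPM in Mtm1-/y and 577 to 713 CPM in WT. In the same comparison 6 of 7 proliferation genes were called lower and 2 of 8 macrophage, 2 of 8 Schwann cell, 2 of 4 brown adipocyte and 1 of 8 fibroblast markers higher, 2 of 10 slow-fibre markers (1 higher, 1 lower) and 1 of 10 fast-fibre markers (lower) were called, and 0 of 8 adipocyte and 0 of 5 blood markers. Of all tested genes 30.4% were called in this comparison, 15.5% higher and 14.9% lower. The part of the markers in the results below was not tested. In whole muscle, fewer cells of a type and less RNA per cell cannot be told apart.

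Mitochondrial DNA is a small circle present in many copies per cell, wrapped by the packaging protein TFAM into nucleoids. The same protein bends the promoters so that the mitochondrial RNA polymerase POLRMT and the initiation factor TFB2M can start transcription, and the elongation factor TEFM carries the polymerase through the long transcripts. Replication is run by the polymerase POLG with its accessory subunit POLG2, the helicase TWNK and the single-strand binding protein SSBP1, and the exonuclease MGME1 trims the ends that are left. TFB1M methylates the small ribosomal RNA of the mitochondrion. PGC-1α, the product of Ppargc1a, is a nuclear coactivator that works with the nuclear respiratory factors and the estrogen-related receptors and is known in muscle for its response to exercise and fasting.

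All 10 genes had a promoter window in RefSeq (GRCm38.p6), reaching from 250 bases before to 50 bases after the annotated start. They were searched on both strands for the motifs of the factors that are best known upstream of these genes. The GABP motif CCGGAAGT stood in the windows of Tfam, Polg and Tefm and in 3.89% of all 32851 windows. The nuclear respiratory factor motif, GCGCA and GCGC with any base between them, stood in the window of Polrmt alone among the 10, in 2 overlapping matches, and in 4.6% of all windows. The short core of the cAMP response element, TGACG, stood in the windows of Polg, Polg2, Tfb1m, Mgme1 and Ppargc1a and in 20.8% of all windows. No member window held the full element TGACGTCA (1.79% of all windows) or the estrogen-related receptor motif TNAAGGTCA (1.28%). A match is a description of these letters and not of binding. The following stretches are shown because they hold the GABP and nuclear respiratory factor matches, and that of Ppargc1a because its level varied most. They are 100 bases long, are read 5′ to 3′ on the strand of the gene, and have the motif in capitals.
Tfam (minus strand, chr10:71238045-71238144, the last 100 bases before the start): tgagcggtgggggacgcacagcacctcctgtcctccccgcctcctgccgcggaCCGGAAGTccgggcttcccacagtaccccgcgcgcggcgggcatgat
Polg (minus strand, chr7:79466274-79466373, the last 100 bases before the start): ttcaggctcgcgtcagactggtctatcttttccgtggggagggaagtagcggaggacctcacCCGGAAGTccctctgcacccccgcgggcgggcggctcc
Tefm (minus strand, chr11:80142154-80142253, the last 100 bases before the start): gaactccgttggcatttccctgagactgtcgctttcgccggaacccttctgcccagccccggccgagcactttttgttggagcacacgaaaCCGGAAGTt
Polrmt (minus strand, chr10:79746572-79746671, 90 bases before the start and the first 10 of the transcript): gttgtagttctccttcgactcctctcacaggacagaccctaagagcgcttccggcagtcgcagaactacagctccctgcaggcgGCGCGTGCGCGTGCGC
Ppargc1a (minus strand, chr5:51567726-51567825, the last 100 bases before the start): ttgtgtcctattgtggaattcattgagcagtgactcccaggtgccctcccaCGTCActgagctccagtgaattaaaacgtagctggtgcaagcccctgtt
The capitals of Polrmt and Ppargc1a are the motifs as read from the opposite strand. The GABP match began 47 bases before the start in Tfam, 38 before in Polg and 9 before in Tefm. The gene start in GENCODE M21, the annotation matched to the counts here, lay upstream of the RefSeq start in Tfam, Polg and Ppargc1a. The distance was 236 bases in Tfam, 89 in Polg and 1 in Ppargc1a. So the GABP matches of Tfam and Polg fall inside the gene as annotated there.

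Per kilobase of exon, the WT levels ran from Tefm to Polg2. Tefm was at 12.04 ± 0.647 CPM per kb (SD, n = 4) and Tfam at 11.45 ± 0.143, and the libraries of these genes overlapped. Polrmt at 7.08 ± 0.339, Polg at 5.33 ± 0.0551 and Ppargc1a at 4.48 ± 0.608 CPM per kb followed, with no overlap between neighbours. Tfb2m (2.41 ± 0.191), Mgme1 (2.35 ± 0.307), Ssbp1 (2.06 ± 0.0641) and Tfb1m (2.04 ± 0.349) each overlapped the next in the order. Polg2 was lowest at 0.779 ± 0.0947 CPM per kb, while its catalytic partner Polg was higher than 71.5% of tested genes. Exon length was the union over all annotated transcripts, 8360 bases for Ssbp1, which lowers the level per kb of a gene with long rare transcripts. Exons of Polg, Polg2, Tfb1m and Mgme1 overlap a gene on the opposite strand (Fanci, Milr1, Tiam2 and Snx5 in that order). The libraries were stranded, but how strand entered the counting was not stated, so reads of these pairs may not be fully separated.

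The measured spread of levels among the libraries of a group differed between the genes. This spread includes the sampling of reads, which weighs more on genes with few counts. In WT, Polg had 1280 to 2361 counts per library and Tfb1m 142 to 355. The part of sampling in the values below was not tested. The coefficient of variation in WT was 1.03% for Polg and 1.25% for Tfam, and 0.213% and 0.342% of all tested genes varied less, where the median gene had 11.9%. At the counts of Polg and of Tfam (1165 to 2034 in WT), the sampling of reads alone is expected to give a larger spread than this. So these low values from 4 libraries do not show that the levels of the 2 genes are held tightly. Ssbp1 followed with 3.12%, and Polrmt with 4.79%. Tfb1m had the highest value, 17.1%. In WT + TAM, where the median gene had 16.7%, Tfam was at 17.5% and Polg at 7.55%. Ppargc1a was at 13.6% in WT but at 61.7% in Mtm1-/y, where its highest library was 4.03 times its lowest.

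**Figure D1:**
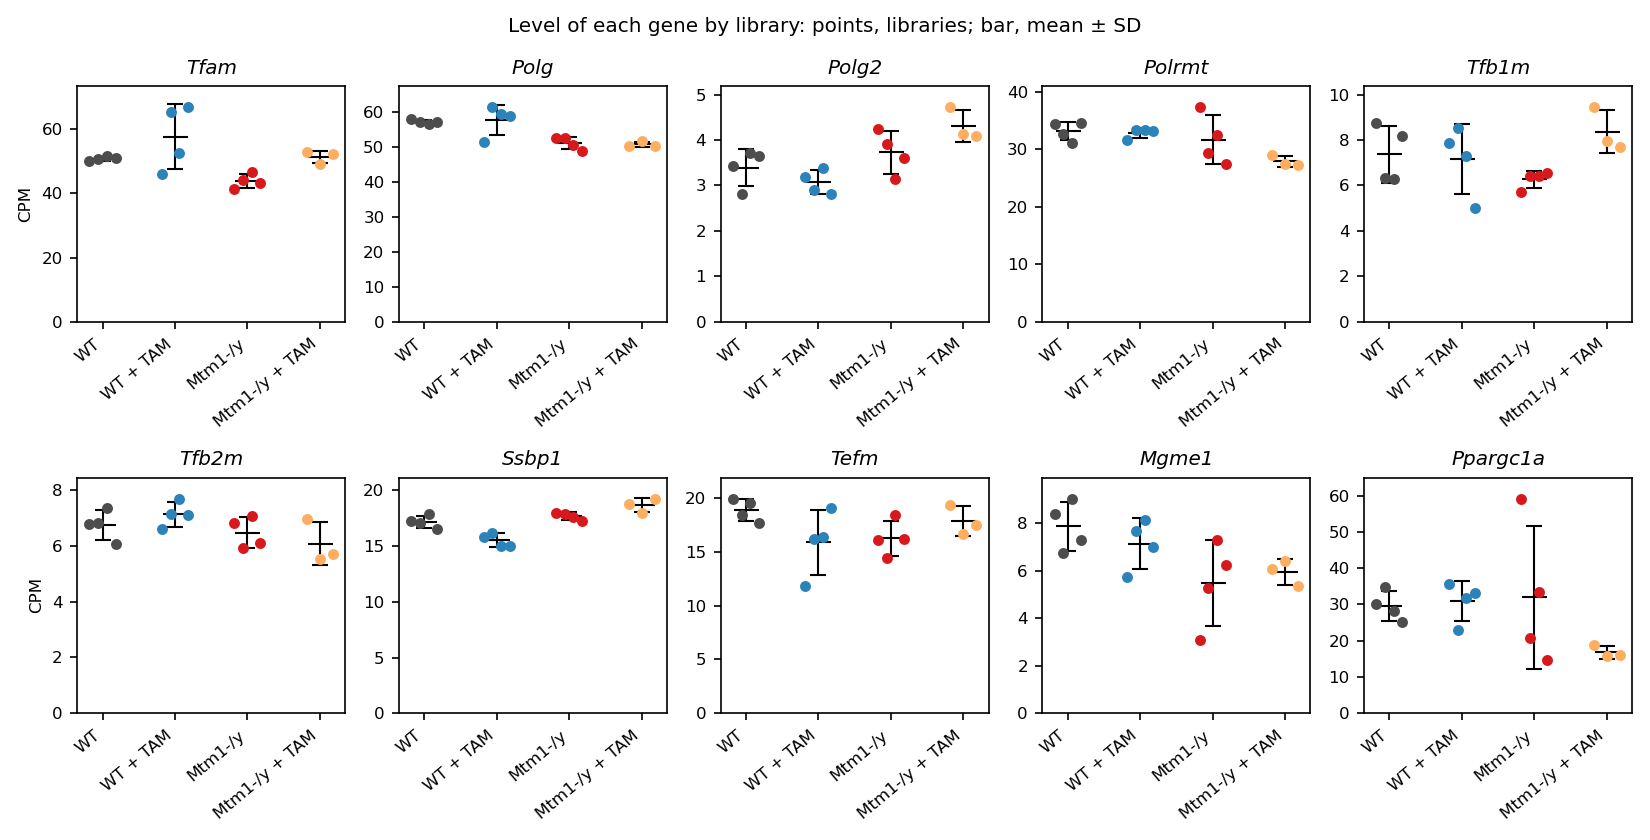
Level of each of the 10 genes in CPM (y axes from 0, a scale per gene) by group (x axes), with a point per library and the mean ± SD. The 4 WT libraries of Tfam and of Polg lie on top of each other, and Ppargc1a spreads from 14.7 to 59.1 CPM in Mtm1-/y.

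In untreated muscle none of the 10 transcripts passed the threshold between Mtm1-/y and WT. Tfam and Polg were lower in every mutant library than in any WT library, by little, and Mgme1 had the lowest fold. The call rate was 0 of 10 where 30.4% of all tested genes were called in Mtm1-/y against WT (edgeR, adjusted p under 0.05). At an unadjusted p under 0.05 there were 2 of 10 (Polg and Mgme1), against 41.6% of all genes. DESeq2 also called 0 and limma-voom called 1 (Mgme1), beside 33.5% and 30.7% of all tested genes. The median log2 fold change of the members was -0.12 and that of all tested genes 0.00047, and the median of the absolute values was 0.15 against 0.32.

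Among the transcription genes, Tfam was at 50.03, 50.7, 51.6 and 51.0 CPM in WT and at 41.5, 44.2, 46.8 and 43.2 CPM in Mtm1-/y. The groups did not overlap. The log2 fold change was -0.21 ± 0.10 (adjusted p = 0.131), a level 13.6% lower, and its 95% interval ran from -0.43 to 0.0063. In all, 2 of 10 members, Tfam and Polg, had all mutant libraries below all WT libraries, which 15.7% of all tested genes had too. Polrmt was at 31.2 to 34.6 CPM in WT and 27.5 to 37.3 in Mtm1-/y, with a log2 fold change of -0.07 ± 0.09 (adjusted p = 0.590) that was -0.16 without Mtm1-/y replicate 1 and -0.0053 without replicate 4. Tfb2m, with 6.04 to 7.35 CPM in WT and 5.93 to 7.05 in Mtm1-/y, gave -0.06 ± 0.11 (adjusted p = 0.735). Tefm was at 17.7 to 19.9 CPM in WT and at 14.4 to 18.4 in Mtm1-/y, a log2 fold change of -0.22 ± 0.12 (adjusted p = 0.197). The ranges of these 3 genes overlapped. Tfb1m, whose product methylates ribosomal RNA, was at 8.73, 6.32, 6.28 and 8.16 CPM in WT and at 5.73, 6.41, 6.42 and 6.54 CPM in Mtm1-/y. The log2 fold change of -0.24 ± 0.16 had an adjusted p of 0.276.

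Of the replication genes, Polg was at 58.1, 57.2, 56.6 and 57.2 CPM in WT and at 52.6, 52.7, 50.7 and 48.9 CPM in Mtm1-/y. The mutants were lower throughout, by 10.6%, with a log2 fold change of -0.16 ± 0.07 (adjusted p = 0.0901), and the call was gained without the pair of libraries that stand apart (-0.17, adjusted p = 0.0410). Mgme1 was at 8.39, 6.76, 9.03 and 7.30 CPM in WT and at 3.09, 5.28, 7.31 and 6.25 CPM in Mtm1-/y. Its log2 fold change of -0.52 ± 0.21 (adjusted p = 0.0656) went to -0.32 without Mtm1-/y replicate 1, its lowest library. Polg2 was at 2.81 to 3.72 CPM in WT and 3.15 to 4.24 in Mtm1-/y, with a log2 fold change of 0.13 ± 0.14 (adjusted p = 0.505; 0.064 without the pair of libraries). Ssbp1 was at 16.6 to 17.9 CPM in WT and 17.2 to 17.99 in Mtm1-/y, with 0.04 ± 0.07 (adjusted p = 0.689). The 95% interval of Ssbp1, -0.10 to 0.19, was the narrowest of the 10, and the value was -0.0072 under upper-quartile scaling.

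The coactivator gene Ppargc1a was the least even of the set. It was at 30.1, 34.7, 28.1 and 25.2 CPM in WT and at 59.1, 20.6, 33.3 and 14.7 CPM in Mtm1-/y. The mutant libraries lay on both sides of the WT range, and the log2 fold change of 0.11 ± 0.32 (adjusted p = 0.819) had a 95% interval from -0.58 to 0.81. Its sign rested on replicate 1: without that library the value was -0.37.

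**Figure D2:**
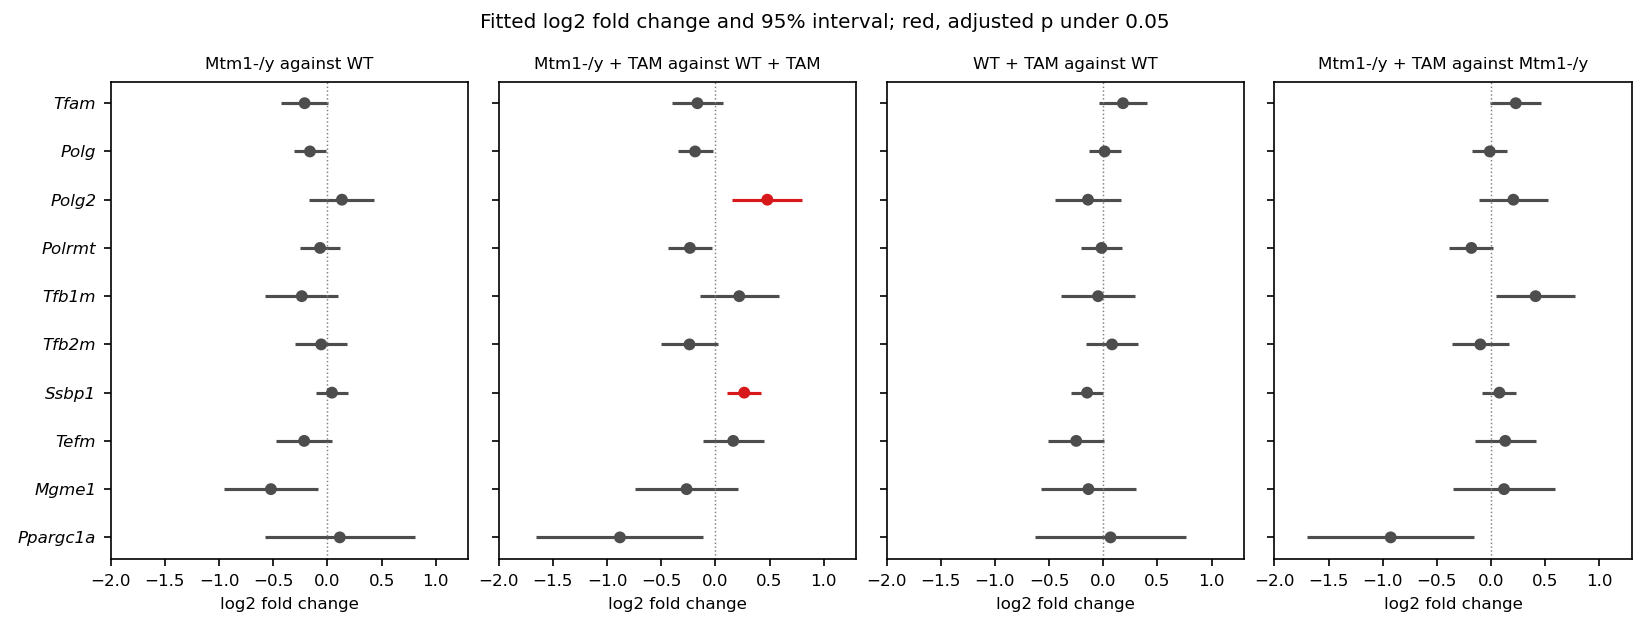
Fitted log2 fold changes (x axes) of the 10 genes (rows) in 4 comparisons, with 95% intervals and calls in red. The calls are Polg2 and Ssbp1 in Mtm1-/y + TAM against WT + TAM, and the intervals of Ppargc1a are the widest in every panel.

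The treatment was then compared within the mutants. Levels of Tfam and Tfb1m lay above those of untreated mutants in every treated library, and Ppargc1a lay in the lower part of the untreated range, but no gene passed the threshold. The count was 0 of 10 where 0.0129% of all tested genes were called in Mtm1-/y + TAM against Mtm1-/y. DESeq2 and limma-voom called 0 as well, beside 0.0258% and 0.0129% of all tested genes. By edgeR 2 members, Ppargc1a and Tfb1m, had an unadjusted p under 0.05, against 5.54% of all genes.

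Tfam was at 52.9, 49.2 and 52.1 CPM in Mtm1-/y + TAM, above the 46.8 CPM of the highest untreated mutant. The log2 fold change was 0.23 ± 0.11 (adjusted p = 0.855), and against untreated WT the treated mutants differed by 0.02 (95% interval -0.22 to 0.25). Tfb1m was at 9.43, 7.97 and 7.68 CPM in Mtm1-/y + TAM, all above the untreated mutants, with a log2 fold change of 0.41 ± 0.17 (adjusted p = 0.855). All treated libraries were above all untreated ones in these 2 members and in 3.33% of all tested genes. Ppargc1a was at 18.9, 15.6 and 16.0 CPM in Mtm1-/y + TAM, near the lowest of the untreated mutants, and its log2 fold change of -0.93 ± 0.36 (adjusted p = 0.855) went to -0.44 without Mtm1-/y replicate 1. The remaining 7 genes had log2 fold changes from -0.18 (Polrmt; -0.093 without the pair of libraries) to 0.21 (Polg2). Polg was at 50.4, 51.7 and 50.2 CPM under tamoxifen, a log2 fold change of -0.01 (95% interval -0.17 to 0.15) that turned to 0.01 under upper-quartile scaling.

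In WT mice tamoxifen also left all 10 below the threshold. The call rate was 0 of 10 beside 0.309% of all tested genes in WT + TAM against WT. DESeq2 and limma-voom also called 0 members, beside 1.92% and 0.251% of all tested genes. By edgeR 1 member had an unadjusted p under 0.05 (Ssbp1, against 11.3% of all genes). Ssbp1 was at 17.2, 17.1, 17.9 and 16.6 CPM in WT and at 15.9, 16.2, 14.98 and 15.02 CPM in WT + TAM. Every treated library was lower, as in 3.86% of all tested genes, with a log2 fold change of -0.15 ± 0.07 (adjusted p = 0.436). Tfam was at 45.9, 65.4, 52.7 and 66.8 CPM in WT + TAM, on both sides of the narrow WT range, a log2 fold change of 0.18 ± 0.10 (adjusted p = 0.533; 0.28 without replicate 1). Tefm was at 11.9, 16.2, 16.4 and 19.1 CPM in WT + TAM, with the lowest level in the replicate 1 that stood apart, and its log2 fold change of -0.25 ± 0.12 (adjusted p = 0.466) was -0.13 without that library. The other 7 genes had values from -0.14 (Polg2) to 0.08 (Tfb2m).

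Between the treated groups Polg2 and Ssbp1 passed the threshold in the main fit, a rate like that of all tested genes. Both were higher in Mtm1-/y + TAM than in WT + TAM, a call rate of 2 of 10 beside 20.1% of all tested genes, of which 10.6% were higher. An unadjusted p under 0.05 was found for 5 members and 33.7% of all genes. Polg2, the accessory subunit that makes the replicative polymerase processive, was at 4.72, 4.13 and 4.08 CPM in Mtm1-/y + TAM and at 3.19, 2.91, 3.38 and 2.82 CPM in WT + TAM. The groups did not overlap, and the log2 fold change was 0.48 ± 0.15 (adjusted p = 0.0372). Ssbp1 was at 18.8, 17.98 and 19.2 CPM in Mtm1-/y + TAM, above all WT + TAM libraries, with a log2 fold change of 0.27 ± 0.07 (adjusted p = 0.0198). Both calls were lost without a count filter (adjusted p of 0.130 for Polg2 and 0.160 for Ssbp1) and with a replicate block. They also depended on the samples kept. When each library of these groups was left out in turn, the adjusted p ran from 0.0472 to 0.127 for Polg2 and from 0.0250 to 0.0740 for Ssbp1, and the number of calls from 0 to 3. It was 0 without WT + TAM replicate 4, without Mtm1-/y + TAM replicate 1 or without replicate 3 of that group, and 1 without WT + TAM replicate 2 or 3 or Mtm1-/y + TAM replicate 2. Of all tested genes 7.98% were called without a count filter, 18% with a replicate block and 10.6% to 21.5% with a library left out.

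Lower in the treated mutants than in any WT + TAM library were Polrmt, at 29.0, 27.5 and 27.2 CPM against 31.6, 33.3, 33.3 and 33.1 CPM, and Ppargc1a, with 23.0 to 35.6 CPM in WT + TAM. Groups did not overlap with the mutants above in 17.2% and with the mutants below in 14.4% of all tested genes. Polrmt had a log2 fold change of -0.23 ± 0.10 (adjusted p = 0.0960). Ppargc1a had the lowest of the 10, -0.88 ± 0.36 (adjusted p = 0.1004). Without the pair of libraries that stand apart both were called, Polrmt at -0.25 (adjusted p = 0.0251) and Ppargc1a at -0.81 (adjusted p = 0.0309), and so were Tfam at -0.26 (adjusted p = 0.0357) and Polg at -0.24 (adjusted p = 0.0141), beside Polg2 at 0.49 (adjusted p = 0.0315) and Ssbp1 at 0.28 (adjusted p = 0.0149). In that fit 29.9% of all tested genes were called, in place of 20.1%.

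A difference of the genotype effect between treated and untreated mice was tested as an interaction, with 0 of 10 members and 0% of all tested genes called by edgeR. DESeq2 and limma-voom also called 0 of 10 members, beside 0.476% and 0% of all tested genes. An unadjusted p under 0.05 was found for 1 member, Ssbp1 (0.23, SE 0.10, adjusted p = 0.458), and for 10.6% of all genes. So the genotype differences of Polg2 and Ssbp1 are not shown to differ between treated and untreated mice. For Polg2 the interaction was 0.35 ± 0.21 (adjusted p = 0.570), and for Ppargc1a it was -0.99 ± 0.48 (adjusted p = 0.484), and -0.51 without Mtm1-/y replicate 1 and -0.44 without the pair of libraries.

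Set against untreated WT, the treated mutants showed 0 calls of 10 beside 23.3% of all tested genes, and 4 unadjusted p-values under 0.05 against 36.3%. DESeq2 and limma-voom also called 0 members, beside 26.6% and 23.6% of all tested genes. The groups did not overlap for 6 members. Polg, Polrmt, Mgme1 and Ppargc1a were lower, as in 20.2% of all tested genes, and Polg2 and Ssbp1 were higher, as in 21.3%. The log2 fold changes were -0.17 for Polg, -0.25 for Polrmt, -0.40 for Mgme1, -0.81 for Ppargc1a, 0.34 for Polg2 and 0.12 for Ssbp1, with adjusted p from 0.0701 to 0.275. Without the pair of libraries that stand apart the 4 lower genes were called, as were 34.2% of all tested genes. This comparison shares libraries with those above.

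**Figure D3:**
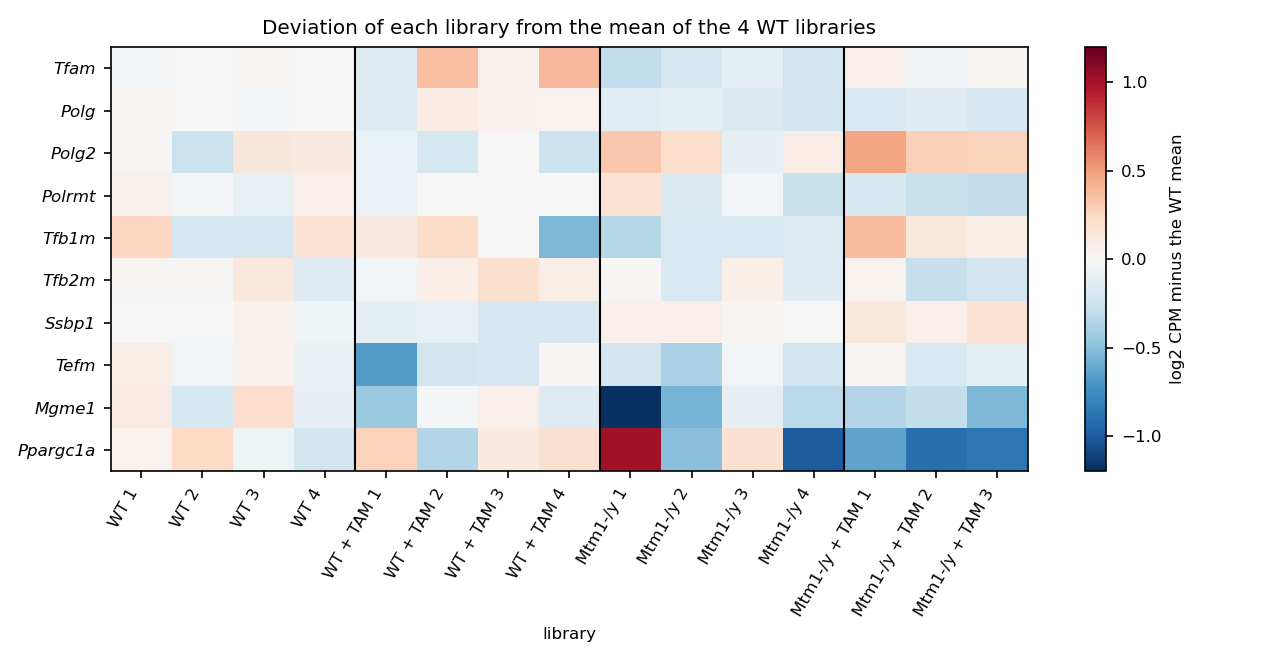
Deviation of each library (columns, grouped by vertical lines) from the mean of the 4 WT libraries for the 10 genes (rows), in log2 CPM from blue (lower) to red (higher). The Mtm1-/y replicate 1 column holds both the highest Ppargc1a and the lowest Mgme1, and the 3 Mtm1-/y + TAM libraries are blue for Ppargc1a and Polrmt and red for Polg2.

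Further lists of genes for mtDNA held calls in untreated mutants, to be read beside the 30.4% of all tested genes called in that comparison. Of 25 tested genes for replication and the supply of nucleotides, 1 was higher and 6 lower in Mtm1-/y against WT, with a median log2 fold change of -0.10. Lower were Twnk, the replicative helicase, Suclg1 and Suclg2, subunits of succinyl-CoA ligase, Opa1, the fusion protein of the inner membrane, Rrm2b, a ribonucleotide reductase subunit, and Slc25a4, the ADP/ATP carrier of muscle. Their log2 fold changes ran from -0.83 (Suclg1) to -0.33 (Twnk). Dguok, a mitochondrial deoxynucleoside kinase, rose by 0.38. Apart from Twnk, the names in this paragraph and the next 3, except Nrf1, Gabpa, Esrra, Ppargc1b, Pdk4 and Fndc5, were chosen after their values were seen.

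Of 26 tested genes for termination and RNA processing, 3 were higher and 7 lower, with a median of -0.20. The higher ones were Hsd17b10 (0.49), a subunit of the mitochondrial RNase P, Rexo2 (0.38), an oligoribonuclease, and Elac2 (0.33), which cuts the other end of tRNAs. The lower ones ran from Mrm1 (-0.51), which methylates ribosomal RNA, to Mrm3 (-0.33), and held Fastkd1, Fastkd2, Pnpt1, Nsun4 and Mterf2. The call count of this list was 6 to 13 as single libraries were left out, with 6 without WT replicate 1 or without Mtm1-/y replicate 2.

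Among 24 upstream regulators 2 were higher and 3 lower, with a median of -0.02. Esrrb, an estrogen-related receptor, fell by 0.93 on the log2 scale, the deacetylase gene Sirt3 by 0.70 and Creb1 by 0.55, while Prkaa1, a catalytic subunit of AMP-activated kinase, rose by 0.61 and Mef2c by 0.29. The Mef2c call was lost without the pair of libraries (0.26, adjusted p = 0.0605), under upper-quartile factors (0.24, adjusted p = 0.0665) and in 7 of 8 fits with a single library left out. The count was 8 in place of 5 without Mtm1-/y replicate 1. Among factors of the searched motifs, Nrf1, Gabpa and Esrra did not pass the test, while Esrrb and Creb1 did, as given above. Nrf1 was at 0.08 ± 0.09 (adjusted p = 0.525), Gabpa at -0.18 ± 0.10 (adjusted p = 0.187) and Esrra at 0.09 ± 0.16 (adjusted p = 0.713; -0.03 without Mtm1-/y replicate 1). Without the pair of libraries Gabpa was called at -0.27 (adjusted p = 0.0194), as it was without Mtm1-/y replicate 1 alone (adjusted p = 0.0326), and Nrf1 was at 0.031. Ppargc1b, the paralogue of Ppargc1a, was at -0.48 ± 0.27 (adjusted p = 0.200; -0.25 without the pair of libraries). Of 13 genes taken as targets of PGC-1α in muscle, 2 were higher and 6 lower (30.4% of all tested genes were called), led by Pdk4 at 1.70 ± 0.55 (adjusted p = 0.0315) and Fndc5 at -1.63 ± 0.22 (adjusted p = 0.000143). Pdk4 slows the entry of pyruvate into the citric acid cycle, and Fndc5 encodes the precursor of irisin. The Pdk4 call was lost without the pair of libraries that stand apart (1.501, adjusted p = 0.0784).

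In the treated groups 10 of the 75 genes of these 3 lists other than the PGC-1α targets were called in Mtm1-/y + TAM against WT + TAM, where 20.1% of all tested genes were called. Without the pair of libraries that stand apart 20 of the 75 were called, beside 29.9% of all tested genes. As single libraries were left out the count was lowest at 4, without Mtm1-/y + TAM replicate 2 (10.6% of all tested genes). It was 6 without replicate 3 of that group (13.5%) or without WT + TAM replicate 4 (16%). The 10 were Dguok, Rexo2 and Prkaa1, higher, and Suclg2, Opa1, Fastkd2, Esrrb, Ppara, Yy1 and Ncor1, lower. None of the 75 was called by edgeR or limma-voom for tamoxifen in either genotype, where 4 in the mutants and 5 in WT had an unadjusted p under 0.05 (5.54% and 11.3% of all genes).

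Twnk was the gene of these lists with the highest fold for tamoxifen in the mutants. It was at 33.3, 31.6, 32.4 and 29.7 CPM in WT, at 31.8, 47.8, 47.4 and 49.9 CPM in WT + TAM, at 23.1, 26.3, 25.8 and 26.05 CPM in Mtm1-/y and at 39.5, 44.2 and 41.2 CPM in Mtm1-/y + TAM. All untreated mutants lay below all WT libraries, as in 15.7% of all tested genes, and all treated mutants lay above both. Treated mutants lay above untreated mutants in 3.33% and above WT in 21.3% of all tested genes. WT + TAM replicate 1 alone of its group stayed within the WT range. The log2 fold change was -0.33 ± 0.12 (adjusted p = 0.0432) in Mtm1-/y against WT, and there the call was lost under RLE scaling and with limma-voom (adjusted p of 0.0512 and 0.0507) and in each of the 8 fits with a single library left out (adjusted p from 0.0534 to 0.0975). It was 0.72 ± 0.12 (adjusted p = 0.158) for tamoxifen in the mutants and 0.48 ± 0.12 (adjusted p = 0.109) in WT. DESeq2 called both, with adjusted p of 0.00114 and 0.0164, and so did edgeR without the pair of libraries that stand apart, at 0.68 (adjusted p = 0.00181) and 0.61 (adjusted p = 0.000219). Upper-quartile scaling gave an adjusted p of 0.0711 in the mutants and 0.110 in WT, and limma-voom 0.207 and 0.141. The genotypes under treatment were at -0.09 ± 0.12 (adjusted p = 0.679), and at -0.21 (adjusted p = 0.0383, a call) without the pair of libraries.

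The transcripts that this machinery makes were lower in the mutants. Of the 13 mRNAs of mtDNA 12 were in the table and 7 were tested. The other 5 had 11 counts or fewer in every library, and why was not tested. All 7 were lower in Mtm1-/y against WT, with log2 fold changes from -0.91 (mt-Nd6) to -0.67 (mt-Co1). The rate was 6 of 7, all lower, in Mtm1-/y + TAM against WT + TAM (3 without Mtm1-/y + TAM replicate 2) and 0 of 7 for tamoxifen in either genotype, by edgeR, DESeq2 or limma-voom and also at an unadjusted p under 0.05. As a share of all counts they made up 7.88% ± 0.187 (SD, n = 4) in WT, 7.42% ± 1.54 in WT + TAM (n = 4), 5.19% ± 0.565 in Mtm1-/y (n = 4) and 5.22% ± 0.472 in Mtm1-/y + TAM (n = 3). The share was lower in Mtm1-/y than in WT by 2.70 percentage points (exact permutation test, two-sided, p = 0.0286, the smallest that 70 arrangements allow, and 0.114 after Benjamini-Hochberg adjustment over the 4 comparisons of this share), and 4 of 4 mutant libraries lay below all WT libraries. Among the treated groups the difference of -2.20 points had an exact p of 0.0857 (adjusted 0.171). For tamoxifen the difference was 0.0298 points in the mutants (exact p = 0.886, adjusted 0.886) and -0.467 points in WT (exact p = 0.6, adjusted 0.8). Nuclear genes used as a measure of mitochondrial content, such as Cs, Sdha and Vdac1, were called in 11 of 18 in Mtm1-/y against WT, 3 higher and 8 lower, with a median of -0.37, and in 1 of 18, higher, in Mtm1-/y + TAM against WT + TAM, with a median of -0.20. The shares of all tested genes called were 30.4% and 20.1%.

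**Figure D4:**
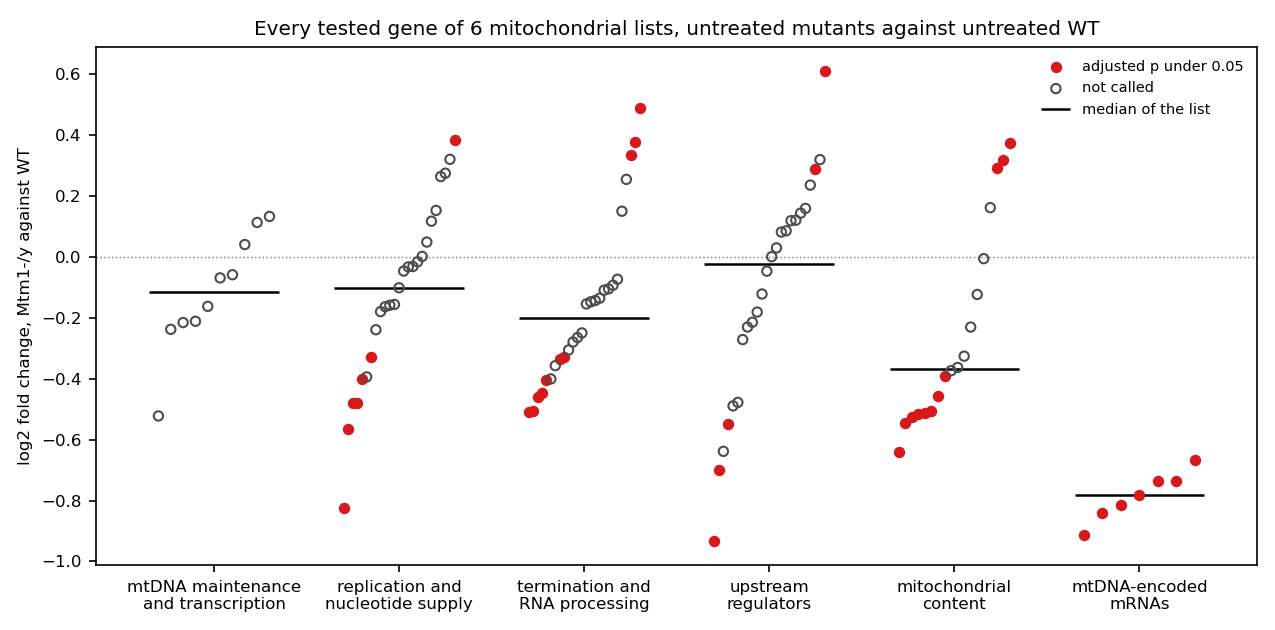
Log2 fold change in Mtm1-/y against WT (y axis) of every tested gene in 6 mitochondrial lists (x axis), with called genes filled in red and the median of each list as a line. The 10 members have no red point and a median of -0.12, and the 7 mtDNA-encoded mRNAs all lie between -0.91 and -0.67.

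Likeness among genes was measured as Pearson's r of log2 CPM over the 15 libraries, which share genotype and treatment groups, and is given as a description. The 5 genes most like Ppargc1a were Sec24a (0.924), Klhl7 (0.923), Slc38a2 (0.916), Aff1 (0.913) and Hipk1 (0.909). Among the members Polrmt was the most like it (r = 0.874, Spearman's rho = 0.654). Its r was 0.791 without the 2 libraries farthest from the median of Ppargc1a, Mtm1-/y replicates 1 and 4, and it was 0.996 within the 7 mutant libraries but -0.386 within the 8 WT and WT + TAM libraries. In the mutants the library with the most Ppargc1a, Mtm1-/y replicate 1, also had the most Polrmt, 37.3 CPM. Tfb2m followed with 0.608, and with 0.663 within the mutant and 0.111 within the WT and WT + TAM libraries. Tfam was at -0.087 over all libraries, at -0.537 within the mutant and at -0.378 within the WT and WT + TAM libraries. The 5 genes most like Tfam were Hadha (0.850), Ak4 (0.847), Sdhb (0.847), Atp5o (0.838) and Chac2 (0.836). Of the members, Polg (0.668) and Mgme1 (0.529) were the most like it and Polg2 (-0.46) the least.

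**Figure D5:**
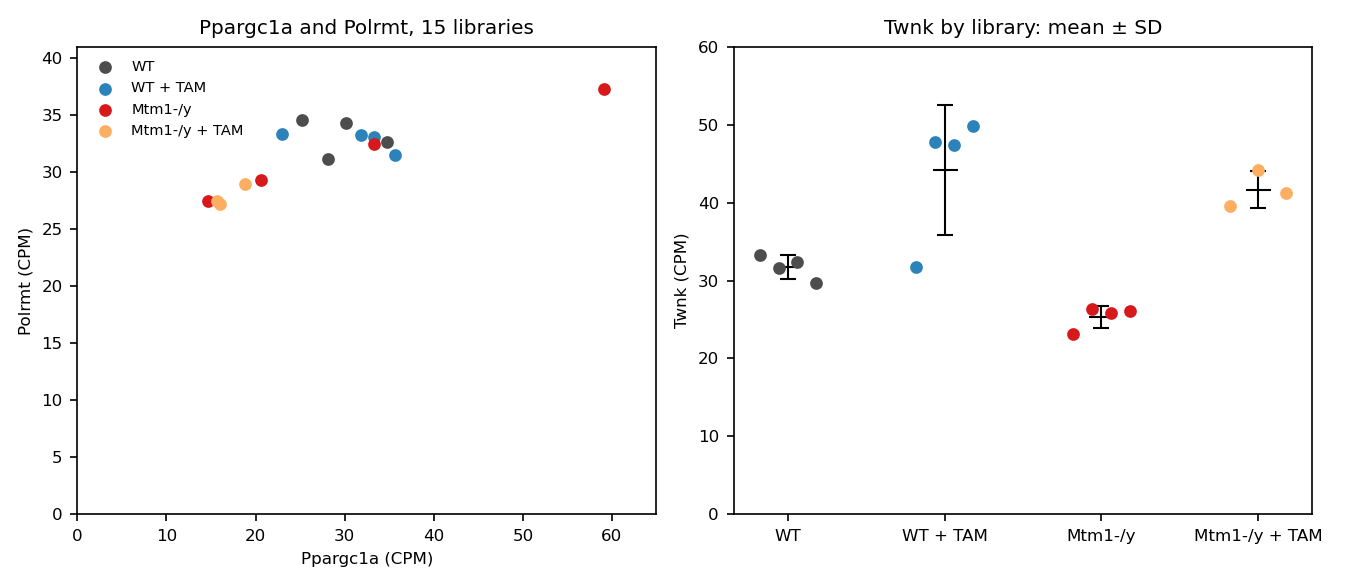
Left, Polrmt against Ppargc1a in CPM, with a point for each of the 15 libraries, and right, Twnk in CPM by group with a point per library and the mean ± SD. The mutant libraries rise together in both genes up to 59.1 CPM of Ppargc1a and 37.3 CPM of Polrmt, and Twnk is higher in all 3 Mtm1-/y + TAM libraries than in any Mtm1-/y or WT library.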

How the data were processed

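RNA of the tibialis anterior was sequenced from TruSeq stranded mRNA libraries of 15 mice. The authors deposited raw counts per Ensembl gene. The submitters' notes list STAR 2.5.3a, Bowtie2 2.2.8, HTSeq 0.6.1p1, cutadapt 1.10 and GRCm38 (mm10). The sources used here do not give the annotation release, strand setting or filters. All 30672 identifiers matched GENCODE M21.

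The fit was made in R 4.3.3 with edgeR 4.0.16 (filterByExpr with a minimum count of 10, TMM factors, robust glmQLFit with 4 group means over all 15 libraries, glmQLFTest). A gene was called at a Benjamini-Hochberg adjusted p under 0.05 over the 15533 tested genes. Intervals of 95% come from the fit. A prior count of 2 was used for log2 CPM. DESeq2 1.42.0, limma 3.58.1 (voom), other scalings, filters and sample choices were alternatives, and those for the lists were added after the data were seen. Of the models, only the edgeR fit was run on simulated data, for Mtm1-/y against WT. Far fewer genes changed there than were called here, so that run says little of these results.

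The members and lists were chosen with earlier results of these data known. Besides the members, the rule named genes of the lists called with an absolute log2 fold change over 1 in Mtm1-/y against WT, at most 4 per direction and list, and Twnk, Nrf1, Gabpa, Esrra and Ppargc1b whatever their values. Other genes of the lists were named after their values were seen. Marker lists were used for sample checks alone. Labels do not say how samples were taken beyond a mouse each, and p-values measure the spread between these samples.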

Additional observations from a re-analysis of the deposited data

Results flagged for a closer look

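A library lay far from the other 3 of its group, by the ratio of its gap to the range of the group, in 2 of 30 groups of 4 libraries tested, where chance gives about 1 in 20. For Polrmt it was WT + TAM replicate 1, at 31.6 CPM (ratio 0.866), beside 33.1 to 33.3 CPM in the rest of its group and 31.2 to 34.6 CPM in WT. For Tfb1m it was Mtm1-/y replicate 1, at 5.73 CPM (ratio 0.843). A count of 2 of 30 is near the rate given by chance. The libraries are those that also stood apart in the principal component analysis, and a link was not tested. The 59.1 CPM of Ppargc1a in Mtm1-/y replicate 1 did not pass this rule, since the other 3 libraries of the group were spread as well.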

How the results depend on the processing

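In 2244 of 2493 comparisons of a log2 fold change with an alternative, its direction and its side of the threshold held. The call was lost in 183, gained in 31 and the direction turned in 35, none of them a called value. The number of members called in Mtm1-/y against WT, 0, was 2 under upper-quartile factors (Polg and Mgme1), 1 with limma-voom, 1 without the pair of libraries that stand apart and 0 to 1 as single libraries were left out. The shares of all tested genes called there were 30.9%, 30.7%, 34.2% and 23.9% to 30.8%. In Mtm1-/y + TAM against WT + TAM, 2 calls became 0 without a count filter, 4 with DESeq2 (Polg, Polg2, Ssbp1 and Ppargc1a), 0 with an absolute log2 fold change over 1 required, 6 without the pair of libraries, and 0 to 3 with single libraries left out. Of all tested genes 7.98%, 23.8%, 6.01%, 29.9% and 10.6% to 21.5% were called, in the same order. In Mtm1-/y + TAM against WT, 0 became 1 under upper-quartile factors (Polrmt), 3 with the 2 groups alone (Polrmt, Mgme1 and Ppargc1a) and 4 without the pair of libraries. Here the shares of all tested genes were 23.6%, 36.3% and 34.2%. Except where removed libraries or genes make the difference by construction, the cause was not tested.

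Replicate numbers are shared between groups. Same-numbered libraries deviated together with r from -0.113 to 0.306 (median -0.004, 21 pairs), and libraries of other numbers with r from -0.338 to 0.214 (median -0.013, 63 pairs). These values cannot tell whether the numbers pair the mice, and the main fit did not pair them. A replicate block gave 0 in place of 2 members called in Mtm1-/y + TAM against WT + TAM, and Ppargc1a at -0.020 in Mtm1-/y against WT.

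Of the lists in Mtm1-/y against WT, termination and RNA processing went from 10 calls to 6 with the 2 groups alone (6 to 13 with single libraries left out), upstream regulators from 5 to 9 without the pair of libraries (4 to 8), mitochondrial content from 11 to 6 at the lowest (6 to 11) and PGC-1α targets from 8 to 5 (5 to 8). Of all tested genes 27.4% were called with the 2 groups alone, 34.2% without the pair and 23.9% to 30.8% with single libraries out. The mtDNA-encoded mRNAs in the treated groups had 3 to 7 calls. For the 75 genes of the 3 lists, the 10 calls between treated groups became 6 without a count filter, 20 without the pair of libraries and 4 to 15 with single libraries left out. The shares of all tested genes called there were 7.98%, 29.9% and 10.6% to 21.5%. The 0 calls for tamoxifen became 1, Twnk in each case, with DESeq2 and without the pair of libraries in either genotype, and 0 to 1 in WT and 0 in the mutants with single libraries left out.

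Without the pair of libraries other uncalled values moved by over 1.5 times: Polg (0.065), Tfb1m (-0.099) and Mgme1 (-0.043) for tamoxifen in WT, Tefm between treated groups (0.047), the interactions of Polg (-0.064) and Polrmt (-0.096), and Gabpa (-0.14) and Ppargc1b (-0.23) between treated groups. There Esrra was called at -0.49 (adjusted p = 0.00971).

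The direction turned in the following values that were not called. Under upper-quartile factors they were Ssbp1 in Mtm1-/y against WT (-0.0072), Polg for tamoxifen in the mutants (0.013) and in WT (-0.0037), the interaction of Polg (0.017) and Tfam in Mtm1-/y + TAM against WT (-0.0059). Ppargc1a in Mtm1-/y against WT was -0.073 with limma-voom. Without the pair of libraries they were Ppargc1a (-0.37) and Esrra (-0.029) in Mtm1-/y against WT, Polg (0.0010) and Mgme1 (-0.081) for tamoxifen in the mutants, Polrmt (0.0026) and Ppargc1a (-0.0031) for tamoxifen in WT, and the interactions of Tfam (-0.076) and Mgme1 (-0.038). With single libraries left out the range was -0.37 to 0.36 for Ppargc1a and -0.029 to 0.18 for Esrra in Mtm1-/y against WT. For tamoxifen in the mutants it was -0.080 to 0.28 for Mgme1 and -0.034 to 0.0012 for Polg. For tamoxifen in WT it was -0.017 to 0.065 for Polg, -0.044 to 0.0047 for Polrmt, -0.0054 to 0.18 for Ppargc1a and -0.14 to 0.090 for Tfb1m. It was -0.0048 to 0.046 for Tfam in Mtm1-/y + TAM against WT and -0.23 to 0.066 for Ppargc1b between treated groups, and for the interactions -0.049 to 0.12 for Tfam and -0.077 to 0.0047 for Polg. The difference in the share of mtDNA-encoded mRNAs was -0.206 to 0.305 percentage points for tamoxifen in the mutants and -1.10 to 0.150 in WT, where -1.10, without WT + TAM replicate 4, had an exact permutation p of 0.0286. It was -2.97 to -2.57 in Mtm1-/y against WT, with an exact p of 0.0286 in each case, the smallest that 35 arrangements allow, which says nothing of stability.

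Limits: Polg2, with 2.81 to 4.72 CPM, has the fewest reads of the 10, and the 3 treated mutants weigh on each comparison that uses them. The sources used here give no regimen, batches or copy number of mtDNA, and mRNA levels do not measure the proteins.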
